A study of Mus musculus with 19 samples.

Results

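Megakaryocyte-erythroid progenitors (MEP) were compared with common myeloid progenitors (CMP), on 3 arrays each, which make up 6 of the 19 arrays of a study of gene and long noncoding RNA expression in 7 mouse blood cell populations. The arrays were chosen by their labels alone, with no measured value used. The donors were adult C57BL/6 mice, 8 to 12 weeks old, whose marrow was sorted. MEP were sorted as lineage-negative, Kit-positive, Sca1-negative cells with low CD16/32 and low CD34, and CMP by the same gate except for high CD34. Neither group carried an engineered allele or had a treatment in the labels. The labels do not say whether the 3 arrays of a group came from separate mice or pools of mice, so p-values measure only how far these arrays varied, a spread that can be technical.

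CMP are the bone marrow progenitors that can give rise to all myeloid cells, and MEP are those restricted to the red cell and platelet branch. The entry into that branch is known for a switch between transcription factors: GATA2, GATA1, TAL1 and KLF1 drive megakaryocyte and erythroid genes, while PU.1 (encoded by Spi1), the C/EBP factors and IRF8 drive granulocyte, monocyte and dendritic cell genes. The CD34 and CD16/32 gates cut a continuum, so cells on both sides of a gate can be alike.

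Each array carried 38391 features after spots of 1 probe were averaged and each gene was represented by 1 probe. A level is the log2 of a probe's processed signal minus the 75th percentile of its array, so that 0 is that percentile and 1 unit is a doubling of signal. A difference is the MEP mean level minus the CMP mean level. The 75th percentile of the raw signal lay at 398 to 553 intensity units on the MEP arrays, against 397 to 606 units on the CMP arrays, and 50.4% to 61.6% of spots were well above background on MEP arrays, against 54.1% to 62.0% on CMP arrays. Array 1 of each group lay on one slide, array 2 of each on another and array 3 of each on the third, called slides 1, 2 and 3 here. With 3 arrays a group, the number of arrays limits the precision.

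The 3 CMP arrays were not alike. CMP 2 and CMP 3 differed by more than 2-fold at 512 features, whereas CMP 1 differed from CMP 2 at 1005 and from CMP 3 at 1449. CMP 1 was nearer to 2 of the MEP arrays, from which it differed at 722 (MEP 1) and 642 (MEP 2) features. MEP 3 stood apart from all other arrays: it differed at 1871 features from MEP 1 and at 1826 from MEP 2, and at 2739 to 3125 from the CMP arrays. MEP 3 also had 173 outlier spots, against 34 to 96 on the other MEP and CMP arrays. Its share of spots well above background, 50.4%, was the lowest of these arrays. The part of array quality in the differences of MEP 3 was not tested. The median SD of a feature over the 3 arrays was 0.19 in MEP and 0.17 in CMP on the log2 scale, within the range of the other populations, 0.09 to 0.26. Counts over gene lists are also given without CMP 1 or MEP 3 where leaving that array out moved them by over 1.5 times or turned their direction.

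The position of each array between the groups was measured with features called without that array. On this scale 1 is the mean of the remaining MEP arrays and 0 that of the remaining CMP arrays. Left out in turn, MEP 2 lay at a median of 0.99 over 510 features, MEP 3 at 0.94 over 491 and MEP 1 at 0.67 over 1076. CMP 2 lay at -0.15 over 293 features and CMP 3 at -0.18 over 311. CMP 1 lay at 0.47 over 1226 features, about midway, and was nearer to the CMP mean than to the MEP mean at 671 of them, or 54.7%. The same share was 97.3% for CMP 2 and 98.7% for CMP 3. For CMP 2 and CMP 3, the remaining CMP arrays and the fit included CMP 1, so their shares are not on the same footing as that of CMP 1.

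**Figure D1:**
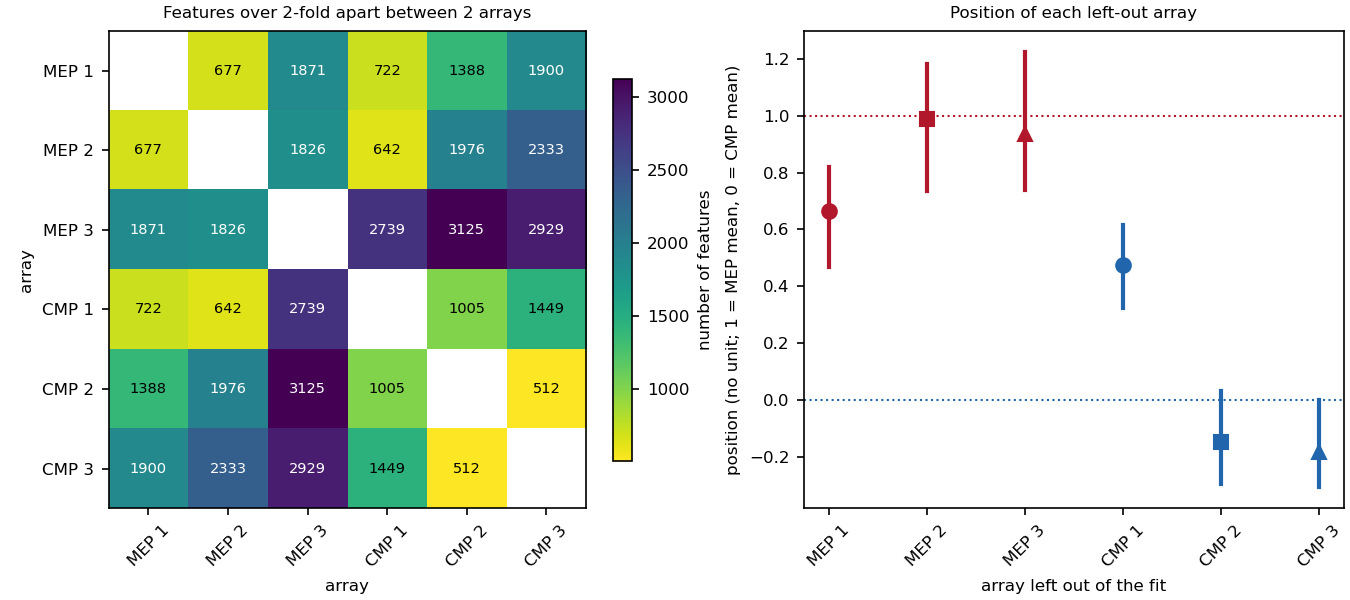
Left, the number of features more than 2-fold apart between each 2 of the 6 arrays. Right, the median position (marker) and quartiles (bar) of each array over the features called without it, where 1 is the mean of the remaining MEP arrays and 0 that of the remaining CMP arrays. CMP 1 sits at 0.47, between the groups, while CMP 2 and CMP 3 sit at -0.15 and -0.18.

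The main comparison asked which features differ between MEP and CMP. A feature entered the test when all arrays of MEP, or all of CMP, read it well above background. It was called if limma's Benjamini-Hochberg adjusted p was below 0.05 and all 3 arrays of the higher group read it so. Of 22832 features tested, 1031 were called (4.52%), 437 of them higher in MEP (1.91%) and 594 lower (2.6%). Counts called in the gene lists below are to be read beside these shares. A difference of at least 2-fold was seen at 175 of the higher and 240 of the lower features, and the median size was 1.87-fold. At 1025 of the called features the 3 MEP and 3 CMP arrays did not overlap, against 6178 (27.1%) of all features tested. The p-values rest on a spread shared over all 19 arrays, so scatter among erythroblast arrays also enters the p-value of a gene. Limma on the 6 arrays alone called 0 features, with 4242 at an unadjusted p below 0.05. Without CMP 1 the count was 1228, and without MEP 3 it was 492. It fell to 294 without CMP 2, to 312 without CMP 3 and to 511 without MEP 2.

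CMP 1 was the CMP array nearest to the MEP mean at 820 of 1030 called features (79.6%), against 43.1% of all features with a value on every array. The median size of the difference of called features between the 2 arrays of a slide was 0.51 on slide 1, 1.04 on slide 2 and 1.11 on slide 3. The sign was that of the group difference at 99.8%, 100% and 100% of called features on those slides, which the call itself favours. In whole sorted samples, fewer cells expressing a gene and less RNA per cell cannot be told apart, and this holds for every difference below.

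The identity of the 2 populations was checked against markers. Of the MEP markers, Gata1, Klf1, Epor, Itga2b, Pf4 and Gfi1b were all well above background on all 6 arrays and none passed the test. Of the CMP markers, Cd34, Kit, Mpo, Flt3, Csf1r and Cebpa were likewise measured on all 6 arrays. Csf1r was lower in MEP, Kit was higher in MEP, and the other 4 were not called. Cd34, the gene whose protein separates the gates, had levels of 6.91, 6.32 and 7.13 in MEP, against 7.07, 7.50 and 7.34 in CMP. Its groups overlapped, and the difference was -0.51 ± 0.31 (SE, limma adjusted p = 0.456). Fcgr3, which encodes CD16, had levels of -1.40, -1.07 and -0.99 in MEP, against -0.63, 0.21 and 0.41 in CMP, a difference of -1.15 that did not pass the test (limma adjusted p = 0.0684). Ly6a, which encodes Sca1, differed by -0.94 (limma adjusted p = 0.122). Of the 18 sorting and stage surface genes, 3 rose (Kit, Slamf1 and Il7r) and 0 fell, with a median of -0.23 against -0.03 over all features tested. Without CMP 1, 4 of them fell.

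Among the transcription factors of the branch, Gata2 showed the largest difference. Gata2, a GATA factor of stem cells, mast cells and early megakaryocyte-erythroid cells, had levels of 4.42, 4.93 and 5.01 in MEP, against 3.80, 3.12 and 3.22 in CMP. All 3 MEP arrays were above all 3 CMP arrays, with CMP 1 the highest of the CMP arrays. The difference was 1.41 ± 0.19, or 2.66-fold higher (limma adjusted p = 0.00142). Gata1, the GATA factor required for red cells and platelets, had levels of 5.82, 6.20 and 5.56 in MEP, against 5.82, 5.11 and 5.24 in CMP. CMP 1 was as high as MEP 1, the groups overlapped, and the difference of 0.47 ± 0.19 did not pass the test (limma adjusted p = 0.226). Without CMP 1 it was 0.69 and passed the test (limma adjusted p = 0.0433). Klf1, the activator of globin and red cell membrane genes, had levels of 3.17, 3.56 and 2.91 in MEP, against 3.34, 2.46 and 2.69 in CMP, and differed by 0.39 (limma adjusted p = 0.536). For Klf1 too, CMP 1 lay inside the MEP range while the other CMP arrays lay below it.

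Of the 20 erythroid transcription factors tested, 3 rose and 1 fell, with a median difference of 0.34. Nfe2, a subunit of the NF-E2 activator of platelet and globin genes, had levels of 5.56, 5.66 and 5.72 in MEP, against 5.14, 5.0 and 5.05 in CMP, with no overlap and a difference of 0.59 ± 0.15 (limma adjusted p = 0.0354). Bcl11a, a repressor of embryonic and fetal globin genes, rose by 0.53, and Sox6, a partner of Bcl11a in that repression, rose by 0.97 (limma adjusted p = 0.0351 and 0.0492). E2f2, a cell cycle factor that is abundant in erythroblasts, fell by 0.69 (limma adjusted p = 0.0171). Without MEP 3, 0 of the 20 passed the test, and without CMP 1, 5 rose and 1 fell. Tal1 (0.43), Zfpm1, which encodes the GATA1 partner FOG1 (0.59), and Gfi1b (0.43) had positive differences that did not pass the test, but Tal1 did without CMP 1 (0.60, limma adjusted p = 0.0377). On slide 1 the differences of Gata1, Klf1, Tal1, Zfpm1 and Gfi1b were 0.00, -0.17, 0.08, 0.06 and -0.12, and on slide 2 they were 1.09, 1.10, 0.77, 1.01 and 0.94. Of 14 megakaryocyte transcription factors, 2 rose, Gata2 and Meis1, and the median was 0.06; without MEP 3, 1 rose. Fli1, an ETS activator of platelet genes, differed by 0.05, and Runx1 by -0.19 (limma adjusted p = 0.982 and 0.785).

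Of 31 stem and multipotent cell genes tested, 9 rose and 0 fell, and the median was 0.56. Slamf1, which encodes the stem cell and MEP surface receptor CD150, had levels of -0.61, -0.17 and -0.58 in MEP, against -1.51, -2.70 and -2.58 in CMP. The groups were apart, with CMP 1 between, and the difference was 1.81 ± 0.26 (limma adjusted p = 0.00217). Mycn, a MYC family factor, had levels of 2.24, 2.30 and 2.35 in MEP, against 1.41, 0.50 and 0.57 in CMP, a difference of 1.47 ± 0.24 (limma adjusted p = 0.00397). Rora, a nuclear receptor, was at -2.27, -1.60 and -1.50 in MEP, against -3.38, -3.57 and -3.62 in CMP, and rose by 1.73 (limma adjusted p = 0.00717). For Rora the 3 CMP arrays were close together. Hoxa10 rose by 1.47, and Meis1, a partner of HOX proteins, rose by 0.94. Eya2 and Prdm16 rose by 1.42 and 1.02.

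The same genes had different orders over the neighbouring populations. Mycn and Rora were at 2.68 ± 0.35 and -0.39 ± 0.16 in LSK cells (SD, n = 3), the lineage-negative population that holds the stem cells, above their MEP means of 2.29 and -1.79. Gata2 averaged 4.79 in MEP and 3.38 in CMP, with 3.16 in LSK and 1.48 in granulocyte-macrophage progenitors (GMP). Slamf1 averaged -0.45 in MEP and -2.26 in CMP, with -2.11 in LSK and -5.37 in GMP, so that for both genes MEP stood highest of the 4 populations and the means of CMP and LSK lay close together. These levels share the MEP and CMP arrays with the comparison and are given as a description.

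Of 32 platelet and megakaryocyte genes tested, 4 rose and 0 fell, and the median was 0.32. F2r, the thrombin receptor PAR1, had levels of 4.27, 4.81 and 4.61 in MEP, against 3.66, 3.02 and 2.94 in CMP. The groups were apart by less on slide 1 (0.61) than on the other slides (1.79 and 1.67), and the difference was 1.35 ± 0.25 (limma adjusted p = 0.00753). Gp9, a subunit of the platelet receptor for von Willebrand factor, rose by 0.76, and Tbxas1, thromboxane synthase, rose by 0.65 (limma adjusted p = 0.0163 and 0.00666). Pf4, platelet factor 4, had levels of 5.83, 5.99 and 6.11 in MEP, against 6.35, 5.98 and 5.96 in CMP, with CMP 1 the highest of the 6 and a difference of -0.12. Itga2b, which encodes CD41, differed by 0.79 and Gp5 by 1.01 without passing the test (limma adjusted p = 0.313 and 0.0545). Without CMP 1, 7 members rose, and without MEP 3, 2 did.

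Among genes of later red cells, the counts called in each direction changed with the arrays left out. Of 29 erythroid surface and membrane genes, 1 rose and 3 fell, where 4.52% of all features tested were called, with a median of -0.23 that was -0.51, 0.34 and -0.42 on the 3 slides. Without CMP 1, 3 rose and 2 fell (median -0.06), without MEP 3, 0 rose and 1 fell (median 0.01), and without both, 4 rose and 1 fell. Slc4a1, the band 3 anion exchanger of the red cell membrane, had levels of -0.86, -0.78 and -0.85 in MEP, against -0.17, 0.19 and 0.23 in CMP, and fell by 0.91 ± 0.22 (limma adjusted p = 0.0281). Dmtn, which encodes the membrane skeleton protein dematin, was at -2.25, -2.17 and -2.61 in MEP, against -0.87, -1.27 and -1.01 in CMP, and fell by 1.29 ± 0.22 (limma adjusted p = 0.00459). Trim10 fell by 1.22, and Aqp9, a water and glycerol channel, rose by 1.16. Epor, the erythropoietin receptor, was at 4.80, 5.29 and 4.83 in MEP, against 5.11, 4.48 and 4.70 in CMP, with overlapping groups (difference 0.21, limma adjusted p = 0.717). Of 32 heme and iron genes, 0 rose and 2 fell, a share near the 4.52% of all features tested, with a median of -0.21. Alas1, the housekeeping enzyme of the rate-limiting heme step, fell by 1.10 and its erythroid form Alas2 fell by 0.75 (limma adjusted p = 0.00907 and 0.037). The other probe of Alas1 differed by only -0.23. Without CMP 1, 2 heme and iron genes rose and 1 fell, as with both arrays left out, and without MEP 3, 0 rose and 1 fell.

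Hemoglobin genes had negative medians on every slide. Of 6 tested, 4 fell, 0 rose, and the median was -0.85. Hbb-bt had levels of 3.45, 3.95 and 3.47 in MEP, against 4.44, 4.64 and 4.55 in CMP, with no overlap and a difference of -0.92 ± 0.17 (limma adjusted p = 0.00673). Hba-a1 was at 3.30, 3.32 and 3.07 in MEP, against 4.23, 3.93 and 4.33 in CMP, and fell by 0.93 (limma adjusted p = 0.0153). Hba-a2 and Hbb-b2 fell by 0.92 and 0.77. These genes have near-identical copies, so their probes may not tell the copies apart and the 4 calls are not independent. In early erythroblasts (2 arrays) the mean levels of Hbb-bt and Hba-a1 were 12.61 and 12.47, and those of Slc4a1, Alas2, Dmtn and Trim10, which also fell, were 11.63, 10.20, 7.13 and 6.68, all far above both progenitors. The part of erythroblast or red cell RNA in these differences was not tested. Without MEP 3, 1 hemoglobin gene passed the test, and the median stayed at -0.85.

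**Figure D2:**
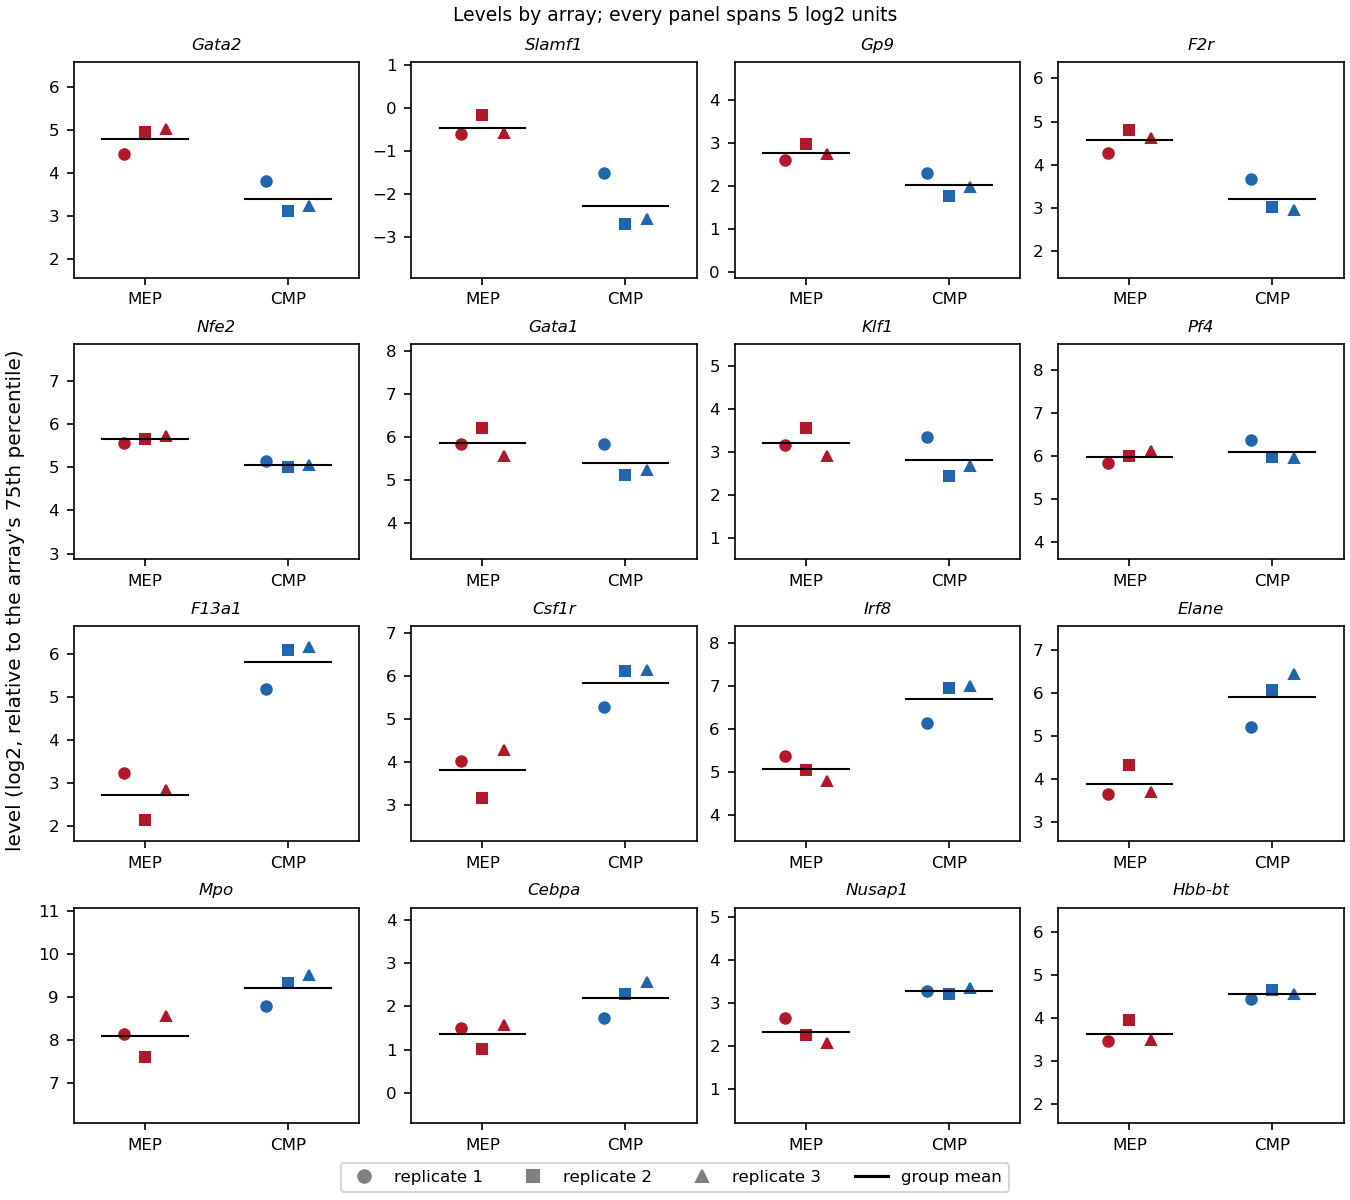
Level (log2, relative to the array's 75th percentile) of 16 genes on the 3 MEP arrays, left in each panel, and the 3 CMP arrays, right. Marker shape gives the replicate, which is also the slide, and the line the group mean. For Gata1, Klf1 and Pf4 the circle of CMP 1 lies within or above the MEP values, while for F13a1, Csf1r and Nusap1 the groups do not overlap.

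Many genes of the granulocyte and monocyte branch were lower in MEP. Of 31 monocyte and dendritic cell genes, 15 fell and 0 rose, with a median of -1.15 against -0.03 over all features tested. F13a1, the A subunit of clotting factor XIII, had levels of 3.22, 2.14 and 2.83 in MEP, against 5.19, 6.10 and 6.15 in CMP. The groups were far apart, and the difference was -3.08 ± 0.27, or 8.46-fold lower (limma adjusted p = 0.000323). Slpi, a secreted inhibitor of neutrophil proteases, was at 3.17, 2.32 and 3.42 in MEP, against 4.71, 5.72 and 5.82 in CMP, and fell by 2.45 ± 0.33 (limma adjusted p = 0.00135). Ly86, which encodes the TLR-associated protein MD-1, fell by 2.10 and Ly6c1 by 2.09. The fractalkine receptor gene Cx3cr1 fell by 1.98, Tyrobp, the signalling adaptor DAP12, by 1.92 and Ccr2 by 1.31. Clec12a was well above background on 0 of 3 MEP arrays, against 3 of 3 CMP arrays, and did not pass the test. The antigen presentation genes Cd74, H2-Aa, H2-Ab1 and H2-Eb1 in this list had positive differences of 1.10, 0.79, 0.89 and 1.15, none past the test (limma adjusted p = 0.0944, 0.56, 0.0593 and 0.0671).

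Primary granule genes encode the enzymes of immature granulocytes. Of 19 tested, 6 fell and 0 rose, with a median of -0.88. Elane, neutrophil elastase, had levels of 3.66, 4.31 and 3.69 in MEP, against 5.19, 6.05 and 6.44 in CMP, a difference of -2.01 ± 0.33 (limma adjusted p = 0.00417). Prtn3, proteinase 3, was at 3.73, 3.25 and 4.04 in MEP, against 4.76, 5.57 and 5.93 in CMP, and fell by 1.75 (limma adjusted p = 0.0165). Igsf6 fell by 2.06 and Hp, haptoglobin, by 1.92. Mpo, myeloperoxidase, was at 8.13, 7.60 and 8.55 in MEP, against 8.78, 9.33 and 9.51 in CMP. All MEP arrays were lower, yet its difference of -1.11 did not pass the test (limma adjusted p = 0.0963). Of 21 mature neutrophil genes, 2 fell, Mmp8 and Mgst1, where 2.6% of all features tested were called lower, and the median was -0.55. Without CMP 1, 3 fell, and without MEP 3, 1 did.

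Of 19 myeloid transcription factors, 3 fell and 1 rose, with a median of -0.74. Irf8, the factor of monocytes and dendritic cells, had levels of 5.39, 5.06 and 4.79 in MEP, against 6.15, 6.95 and 7.00 in CMP, and fell by 1.62 ± 0.22 (limma adjusted p = 0.00146). Cebpd and Irf5 fell by 1.30 and 0.90, and Egr2 rose by 1.43. Spi1 and Cebpa, the master factors of the branch, differed by -0.86 and -0.84 without passing the test (limma adjusted p = 0.581 and 0.477). In both, every MEP array was below every CMP array, as at 15.3% of all features tested. For Spi1 the gap was narrow, with MEP 3 at -0.70 and CMP 1 at -0.68. The SDs of Spi1 and Cebpa were 0.35 and 0.31 over the MEP arrays and 0.58 and 0.42 over the CMP arrays. The shared spread also took in an SD of 1.87 for Spi1 in late erythroblasts and of 2.23 for Cebpa in early erythroblasts. In each of these only 1 array read the gene well above background. Without CMP 1, 6 members fell, and without MEP 3, 1 did.

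Cytokine receptors split. Of 25 tested, 4 rose and 6 fell, with a median of -0.16, and 2 rose and 5 fell without MEP 3. Csf1r, the receptor for M-CSF, had levels of 4.03, 3.17 and 4.27 in MEP, against 5.28, 6.11 and 6.15 in CMP, and fell by 2.02 ± 0.26 (limma adjusted p = 0.00122). Il6st, the shared gp130 subunit of the IL-6 family receptors, was at 0.59, -0.46 and 0.54 in MEP, against 1.5, 2.25 and 2.42 in CMP, and fell by 1.83 (limma adjusted p = 0.0021). Il6ra, Csf2rb, Ifngr2 and Il3ra fell by 1.29, 1.25, 0.89 and 0.69. Kit, the stem cell factor receptor, was at 5.20, 5.30 and 5.38 in MEP, against 4.81, 4.51 and 4.59 in CMP, and rose by 0.66 (limma adjusted p = 0.028). Il7r rose by 1.23, and Il1rl1, the IL-33 receptor of mast cells, by 0.62. Flt3 differed by -1.0 without passing the test (limma adjusted p = 0.0809).

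**Figure D3:**
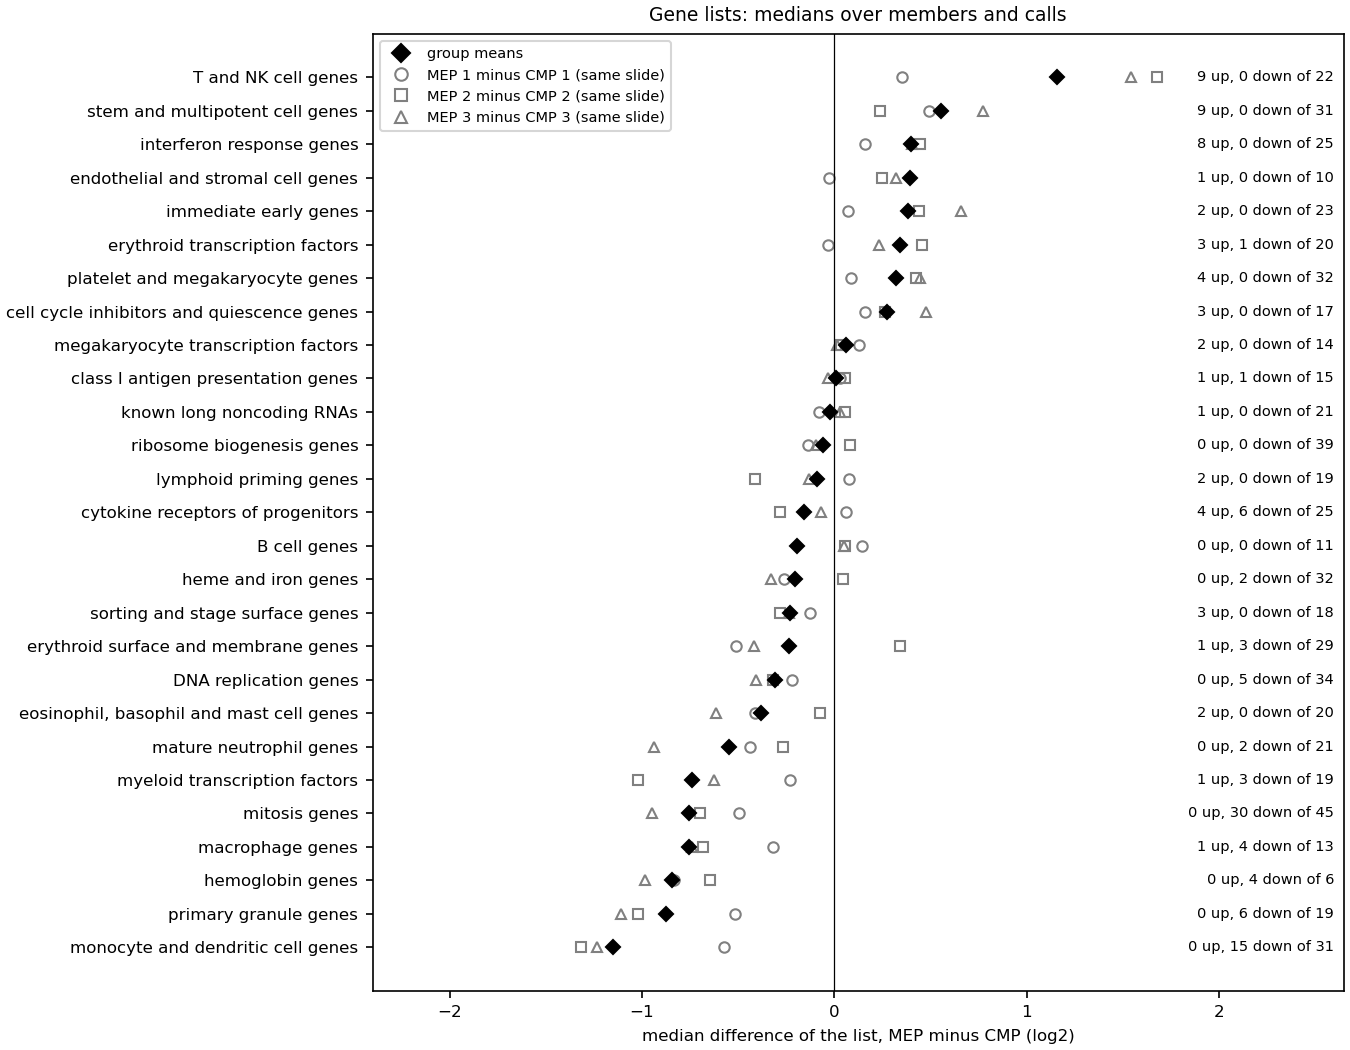
Median difference, MEP minus CMP on the log2 scale, of each gene list over group means (diamonds) and over the pair of arrays on each slide (open markers), with the number of members called higher and lower in MEP of those tested. Lists run by their medians, with 1.16 for T and NK cell genes at the top and -1.15 for monocyte and dendritic cell genes at the bottom. The open circle of slide 1 lies nearer 0 than the other slides for both of these lists.

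Mitosis genes were the list with the most calls. Of 45 mitosis genes tested, 30 fell and 0 rose, all 45 differences were negative, and the median was -0.76. The MEP arrays were all below the CMP arrays for 40 of them, as they were for 15.3% of all features tested. Nusap1, a spindle microtubule protein, had levels of 2.66, 2.27 and 2.07 in MEP, against 3.29, 3.21 and 3.35 in CMP, and fell by 0.95 ± 0.16 (limma adjusted p = 0.00432). Kif23, a kinesin of the dividing cell's midzone, was at 1.38, 0.86 and 1.03 in MEP, against 2.12, 2.19 and 2.04 in CMP, and fell by 1.02 (limma adjusted p = 0.0124). Top2a, the topoisomerase of dividing cells, was at 3.66, 3.19 and 2.64 in MEP, against 4.06, 3.99 and 4.18 in CMP, and fell by 0.92 (limma adjusted p = 0.0325). For all 3 genes the CMP arrays were tight and the MEP arrays spread. Racgap1, which acts with Kif23 in cytokinesis, fell by 0.91. Among other members, Plk1, Aurka and Mki67 fell by 0.91, 0.83 and 0.61.

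The place of CMP 1 differed from list to list. Over the 19 mitosis genes called without CMP 1, CMP 1 had a median position of -0.0026 on the scale between the groups, with a range of -0.23 to 0.30, and was nearer the CMP mean at 19 of 19. Over the 17 monocyte and dendritic cell genes called without it, its median position was 0.47, and over 7 myeloid transcription factors it was 0.61. Over 10 stem and multipotent cell genes it was 0.51. In lists of the red cell and platelet branch CMP 1 lay at 0.73 over 3 heme and iron genes and 0.71 over 5 erythroid surface and membrane genes. It lay at 0.61 over 6 erythroid transcription factors and 0.58 over 7 platelet and megakaryocyte genes. In other lists CMP 1 also lay near the CMP mean, at 0.15 over 3 hemoglobin genes, 0.15 over 7 T and NK cell genes and 0.19 over 4 DNA replication genes. No test was made of these differences between lists. Among the MEP arrays, over 35 mitosis genes called without MEP 1, MEP 1 lay at 0.58, and over 15 called without MEP 3, MEP 3 lay at 1.43, beyond the other MEP arrays. The mitosis count was 19 without CMP 1, 15 without MEP 3 and 11 without both, and the median was -0.74 and -0.65 without CMP 1 and without MEP 3.

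Of 34 DNA replication genes tested, 5 fell and 0 rose, all 34 were negative, and the median was -0.31. Without MEP 3, 3 fell. Rrm2, a subunit of ribonucleotide reductase, had levels of 4.60, 4.57 and 4.64 in MEP, against 5.19, 5.26 and 5.35 in CMP, and fell by 0.66 ± 0.10 (limma adjusted p = 0.00353). Tk1, thymidine kinase, fell by 0.83, and Ccne1 and Gins1 fell by 0.58 and 0.56. Of 17 cell cycle inhibitors and quiescence genes, 3 rose and 0 fell. Txnip, an inhibitor of thioredoxin, was at 4.35, 4.37 and 4.16 in MEP, against 3.61, 2.97 and 3.19 in CMP, and rose by 1.04 (limma adjusted p = 0.00402). Trp53inp1 and Btg2, both targets of p53, rose by 0.91 each. Of 39 ribosome biogenesis genes, 0 passed the test in limma, and their median of -0.06 changed sign with the scaling (0.07 after quantile normalization).

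**Figure D4:**
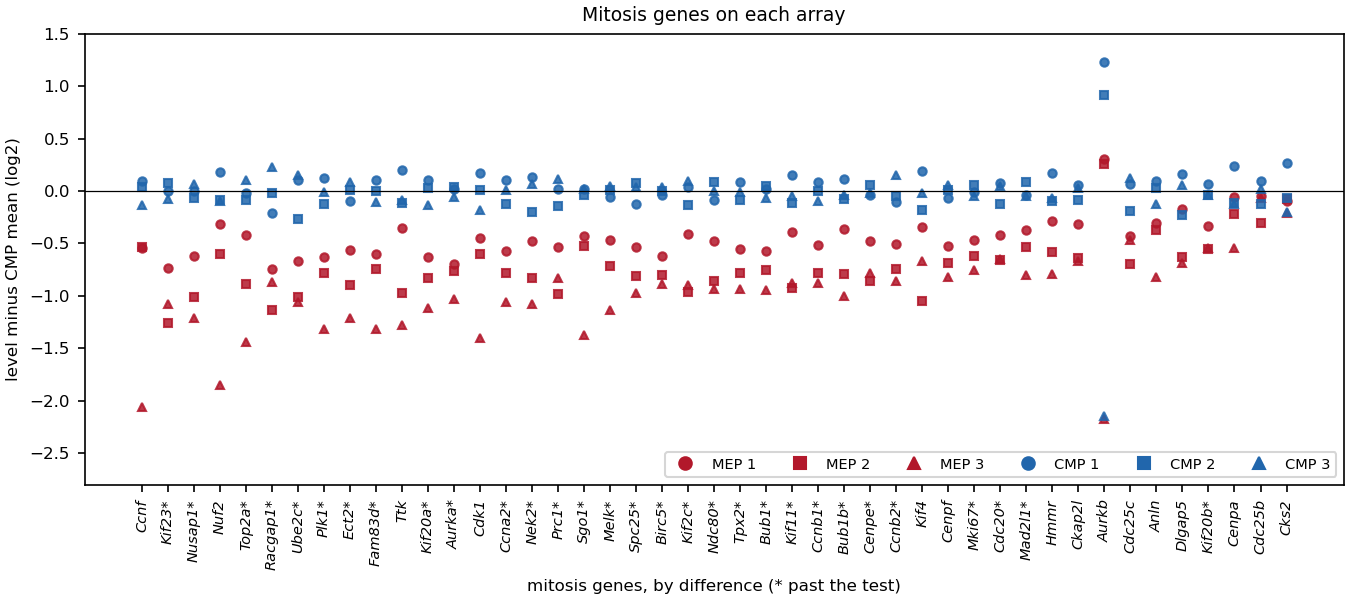
Level of each of the 45 mitosis genes on each array minus the mean of the 3 CMP arrays (log2), ordered by the difference, with asterisks at the 30 genes past the test. CMP 1 lies with CMP 2 and CMP 3 near 0 for most genes, and MEP 3 is the lowest array for many.

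Sequences before the start sites are shown for 4 mitosis genes that fell, since this list moved together, and were chosen after their values were seen. Ube2c and Kif11, an E2 enzyme of mitotic exit and a spindle kinesin, fell by 0.91 and 0.73. The promoters are from RefSeq, build GRCm38.p6, 250 bases before the start site, 5′ to 3′ on the gene's strand, with TTTGAA (the core of the cell cycle homology region) and CCAAT (bound by NF-Y) in capitals, each searched on both strands with overlaps allowed. They are Top2a (chr11:99024190-99024439, minus strand), Ube2c (chr2:164769679-164769928, plus strand), Kif11 (chr19:37376132-37376381, plus strand) and Nusap1 (chr2:119618048-119618297, plus strand).
Top2a: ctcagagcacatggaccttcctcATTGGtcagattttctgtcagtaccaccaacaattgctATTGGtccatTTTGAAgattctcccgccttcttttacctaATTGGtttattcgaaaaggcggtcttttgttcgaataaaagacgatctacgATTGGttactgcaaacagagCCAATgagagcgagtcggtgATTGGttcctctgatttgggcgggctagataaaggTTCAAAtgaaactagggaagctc
Ube2c: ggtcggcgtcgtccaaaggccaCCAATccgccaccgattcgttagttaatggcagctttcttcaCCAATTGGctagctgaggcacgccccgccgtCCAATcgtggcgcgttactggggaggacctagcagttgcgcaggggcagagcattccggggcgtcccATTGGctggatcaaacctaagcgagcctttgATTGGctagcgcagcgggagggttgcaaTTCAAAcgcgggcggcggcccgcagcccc
Kif11: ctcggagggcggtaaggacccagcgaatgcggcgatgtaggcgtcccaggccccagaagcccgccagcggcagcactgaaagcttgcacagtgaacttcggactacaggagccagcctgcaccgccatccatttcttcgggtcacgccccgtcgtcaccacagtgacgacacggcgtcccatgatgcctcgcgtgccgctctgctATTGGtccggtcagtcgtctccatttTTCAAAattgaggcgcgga
Nusap1: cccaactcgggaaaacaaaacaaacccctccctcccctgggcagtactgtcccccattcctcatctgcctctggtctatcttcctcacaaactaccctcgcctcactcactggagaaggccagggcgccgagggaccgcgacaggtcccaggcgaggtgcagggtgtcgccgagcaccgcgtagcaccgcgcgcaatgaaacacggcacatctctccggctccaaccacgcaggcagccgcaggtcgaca

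Of the 45 mitosis genes, 39 matched, with 41 promoters. TTTGAA was found in 14 of these promoters (34.1%), against 16% of 32851 promoters of all genes, and CCAAT in 31 (75.6%), against 33.8%. Both were in 13 (31.7%), against 5.55%. TTTGAA within 50 bases of the start site was in 9 (22%), against 2.63%. In Top2a, Ube2c and Kif11 a match lies 23, 29 and 19 bases before the start site, and CCAAT matches lie upstream of it. The Nusap1 window held neither motif. The matches are a description of these windows.

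For the other groups, promoters are shown of Gp9, Hba-a1 and Prtn3. Gp9 rose, Hba-a1 and Prtn3 fell, and the capitals mark GATAA (a core bound by GATA factors) in Gp9, GATAA and CCAAT in Hba-a1, and GGAAG (a core bound by ETS factors such as PU.1) in Prtn3. They are Gp9 (chr6:87777820-87778069, plus strand), Hba-a1 (chr11:32283422-32283671, plus strand) and Prtn3 (chr10:79879417-79879666, plus strand).
Gp9: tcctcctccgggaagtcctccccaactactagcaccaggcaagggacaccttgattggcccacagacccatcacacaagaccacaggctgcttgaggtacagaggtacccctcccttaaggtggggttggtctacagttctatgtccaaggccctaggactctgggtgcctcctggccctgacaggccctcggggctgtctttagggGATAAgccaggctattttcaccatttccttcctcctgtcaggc
Hba-a1: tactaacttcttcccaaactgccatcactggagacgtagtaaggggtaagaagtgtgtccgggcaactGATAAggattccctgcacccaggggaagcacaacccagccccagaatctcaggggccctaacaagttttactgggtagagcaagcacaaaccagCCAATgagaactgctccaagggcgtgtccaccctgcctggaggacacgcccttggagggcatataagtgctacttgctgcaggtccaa
Prtn3: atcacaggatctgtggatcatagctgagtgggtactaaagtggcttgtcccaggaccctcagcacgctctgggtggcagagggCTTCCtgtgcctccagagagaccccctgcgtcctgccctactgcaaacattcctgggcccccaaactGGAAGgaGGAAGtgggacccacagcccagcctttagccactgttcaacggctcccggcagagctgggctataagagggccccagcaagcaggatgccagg

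GATAA was in 10 of 29 promoters of platelet and megakaryocyte genes (34.5%), in 11 of 28 of erythroid surface and membrane genes (39.3%) and in 4 of 4 of hemoglobin genes, against 22.6% of all promoters. It was in 3 of 25 promoters of stem and multipotent cell genes (12%) and in 1 of 18 of primary granule genes (5.56%). It was also in 10 of 20 promoters of eosinophil, basophil and mast cell genes (50%). Erythroid transcription factors had it in 7 of 27 (25.9%) and megakaryocyte transcription factors in 2 of 17 (11.8%). GGAAG was in 17 of 18 primary granule promoters (94.4%), against 64.1% of all promoters. Of other lists, macrophage genes had it in 11 of 11 promoters and T and NK cell genes in 16 of 19 (84.2%). Erythroid transcription factors had it in 14 of 27 (51.9%).

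The largest differences among named genes that were measured on all 6 arrays lay partly outside these lists. Fbxl13, an F-box protein gene, had levels of 0.29, 1.05 and 0.86 in MEP, against -0.67, -2.09 and -2.10 in CMP, and rose by 2.35 ± 0.37, or 5.11-fold (limma adjusted p = 0.00353). In LSK and GMP it averaged -5.62 and -5.86. Pdzph1, Kif26b and St8sia6 rose by 1.98, 1.98 and 1.69, and like Fbxl13 averaged lower in LSK (-3.53, -6.09 and -2.86) and in GMP (-3.74, -3.65 and -2.15) than on any MEP or CMP array. S1pr1, a receptor for sphingosine 1-phosphate, rose by 1.82, Scin, which encodes an actin-severing protein, by 1.74, and Gimap8 by 1.69. Among genes that fell, Mefv, which encodes pyrin, was at 0.26, -0.06 and 0.52 in MEP, against 1.95, 3.16 and 3.23 in CMP, a difference of -2.54 ± 0.28 (limma adjusted p = 0.000646). Tifab, Apba1, Mtus1, Anxa3, Cd14, Nrg2 and Cd300lb fell by 2.06 to 2.33.

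Of the 437 features called higher in MEP, MEP had the highest mean of LSK, MEP, CMP, GMP and granulocytes at 162 (37.1%) and LSK at 156 (35.7%), against 16% and 12.8% of all features tested. Of the 594 called lower, GMP had the highest mean at 315 (53%) and granulocytes at 178 (30%), against 27.4% and 30% of all features tested. Being called higher removes CMP, and being called lower removes MEP, from the top place, so these shares are a description.

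**Figure D5:**
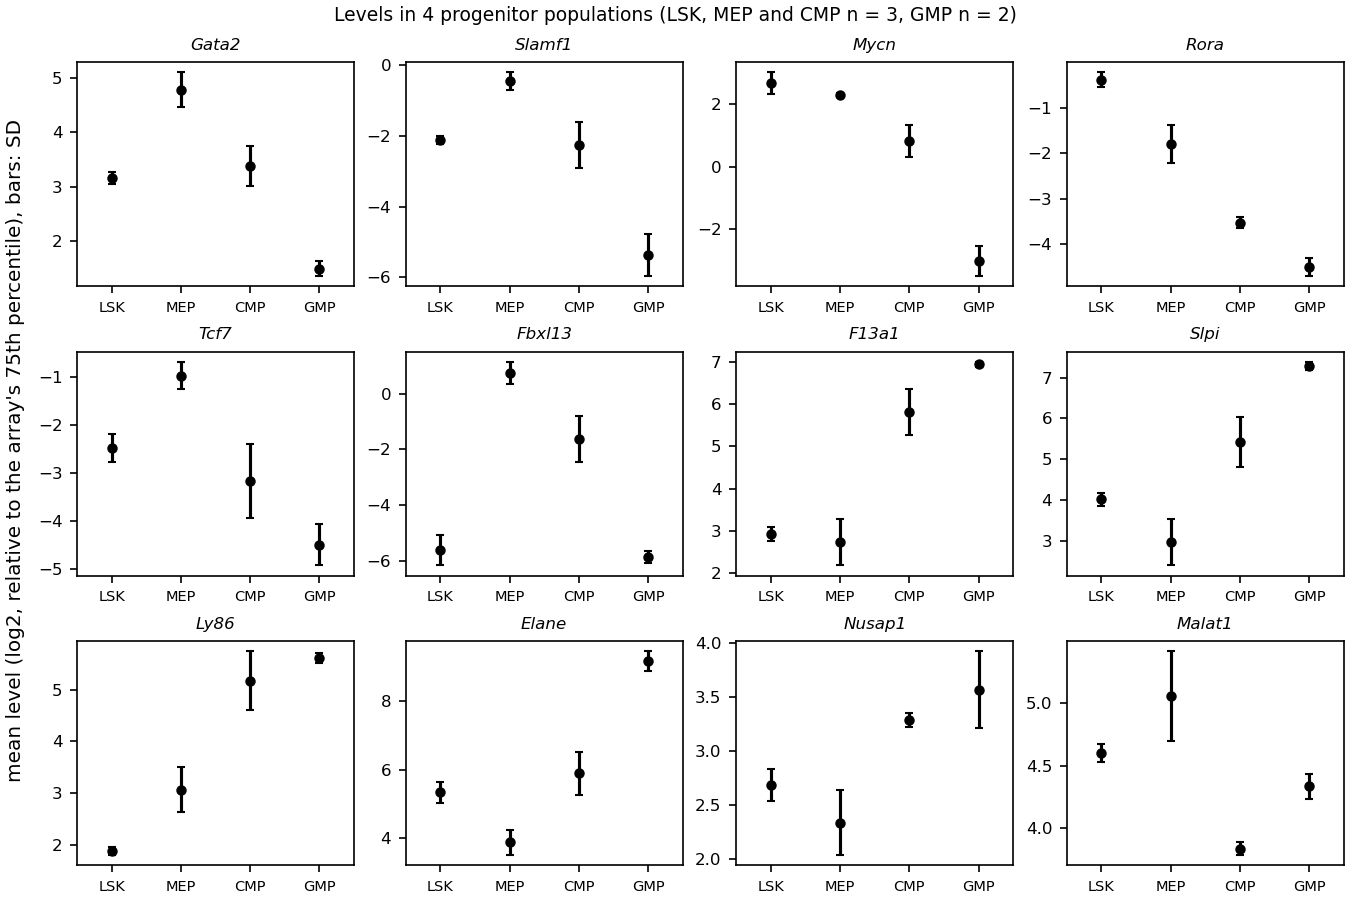
Mean level (log2, relative to the array's 75th percentile) and SD of 12 genes in LSK, MEP and CMP (n = 3 each) and GMP (n = 2). Gata2, Slamf1, Tcf7 and Fbxl13 are highest in MEP, Mycn and Rora in LSK, and F13a1, Slpi and Elane in GMP.

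Some genes were read as signal in one group only. Epha4, an ephrin receptor, was well above background on 3 of 3 MEP arrays and 0 of 3 CMP arrays, and was at least 3.49-fold higher in MEP (limma adjusted p = 0.0358), with MEP levels of -1.53, -4.92 and -2.99 that differed widely. Scimp and Megf10 were at least 2.18-fold and 1.80-fold higher. In the other direction, Abcd2, a peroxisomal transporter, and Upk1b, a uroplakin, were at least 2.35-fold and 2.31-fold lower in MEP, where they were well above background on 0 arrays (limma adjusted p = 0.00385 and 0.000352). Clec2m and Angptl2 were at least 1.93-fold and 1.70-fold lower.

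Long noncoding RNAs were the purpose of the custom array. Of 21 known long noncoding RNAs tested, 1 rose and 0 fell, near the 4.52% of all features tested, and 1 rose and 1 fell without MEP 3. Malat1, a nuclear RNA of speckles, had levels of 4.70, 5.05 and 5.42 in MEP, against 3.78, 3.87 and 3.85 in CMP, with no overlap and a difference of 1.22 ± 0.14 (limma adjusted p = 0.000759). Its neighbour Neat1 differed by 0.33 (limma adjusted p = 0.26). Of 879 custom features, 21 rose and 20 fell, near the 4.52% of all features tested, with a median of 0.04. Without MEP 3, 9 rose and 9 fell. The custom feature TCONS_00168307 had levels of -4.62, -4.88 and -5.12 in MEP, against -2.55, -1.47 and -1.26 in CMP, a difference of -3.12 ± 0.29 (limma adjusted p = 0.000352). It was well above background on 2 of 3 MEP arrays, so the size of its change is uncertain. TCONS_00130525 fell by 2.27, with 3 of 3 arrays above background in both groups. TCONS_00381994 was at -0.30, 0.12 and 0.28 in MEP, against -1.11, -1.95 and -1.70 in CMP, and rose by 1.62 (limma adjusted p = 0.00417). TCONS_00092131 rose by 1.51. The files give no gene name for these features.

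Of 2880 catalogue intergenic noncoding regions tested, 23 rose and 17 fell, a smaller share than the 4.52% of all features tested, with a median of 0.02. Without CMP 1, 15 rose and 18 fell, and without MEP 3, 8 rose and 6 fell. The region chr6:47915489-47916089 (mm9, as the files give it) had levels of -0.95, -1.88 and -1.84 in MEP, against -0.10, -0.13 and -0.89 in CMP, and fell by 1.19 (limma adjusted p = 0.0393). The lowest CMP array lay just above the highest MEP array. The region chr6:3283191-3284581 was at -3.34, -3.21 and -2.54 in MEP, against -4.15, -4.62 and -5.44 in CMP, and was 1.71 higher (limma adjusted p = 0.00325). Of the CMP arrays, 1 of 3 read it well above background. The region chr6:40699474-40719122 fell by 1.87 and averaged 2.94 in GMP.

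Several lists of other cell types or states were examined for cells the gates could hold. Of 22 T and NK cell genes tested, 9 rose and 0 fell, with a median of 1.16 that was 0.35, 1.68 and 1.55 on the 3 slides. Tcf7, a T cell transcription factor, had levels of -1.30, -0.76 and -0.88 in MEP, against -2.29, -3.45 and -3.76 in CMP, and rose by 2.19 ± 0.33 (limma adjusted p = 0.00244). Cd3g and Skap1 rose by 2.07 and 1.72, with Cd3g read above background on 1 of 3 CMP arrays, while Cd3e and Cd4 differed by -0.10 and -0.09 without passing the test, and Cd8a was well above background on 0 of 6 arrays. The signal summed over the 25 genes of the list on the array was 26.4 to 36.9 times the array's 75th percentile in MEP, against 16.8 to 21.8 times in CMP. The sort removed lineage-positive cells. In LSK the mean of Tcf7 was -2.48 and that of Skap1 -0.23. Without MEP 3, 3 members rose. The part of T or NK cells in these differences was not tested.

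The B cell list had 0 of 11 members past the test in limma, and Blk and Fcmr were well above background on 0 arrays; the summed signal was 14.8 to 19.7 times the 75th percentile in MEP, against 14.2 to 20.4 times in CMP. Of 13 macrophage genes, 1 rose and 4 fell. Apoe, apolipoprotein E, had levels of 6.45, 6.83 and 6.74 in MEP, against 5.72, 5.0 and 5.30 in CMP, and rose by 1.33 ± 0.22 (limma adjusted p = 0.00459), while Adgre1 (F4/80), Mrc1, Cd5l and Vcam1 fell by 1.81, 1.53, 1.30 and 1.21. Adgre1 and Mrc1 were well above background on 2 of 3 MEP arrays, and Mertk, Timd4, Siglec1 and Cd163 on 0 of the 6. The summed signal of that list was 109 to 132 times in MEP, against 69.4 to 81.0 times in CMP. Apoe, far brighter than the 4 members that fell, carries much of these sums. Of the 13 differences, 9 were negative, and the median was -0.76. Of 20 eosinophil, basophil and mast cell genes, Il4 and Il1rl1 rose and 0 fell, while 14 of the 20 differences were negative and the median was -0.38. Of 10 endothelial and stromal cell genes, Col1a2 rose, by 1.39, and Cdh5, Flt4, Col1a1, Pdgfra, Kitl and Lum were well above background on 0 arrays. Of 19 lymphoid priming genes, 2 rose, Ltb by 1.53 and Il7r. Without MEP 3, 1 lymphoid priming gene and 0 endothelial and stromal cell genes rose.

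Of 25 interferon response genes, 8 rose and 0 fell, with a median of 0.40. Without MEP 3, 5 rose. Oas2, which senses double-stranded RNA, had levels of 0.58, 0.70 and 1.19 in MEP, against -0.24, -0.79 and -0.82 in CMP, and rose by 1.44 ± 0.21 (limma adjusted p = 0.00201). Ddx58, which encodes the RNA sensor RIG-I, rose by 1.05, as did Rtp4. In LSK the means of Oas2, Ddx58 and Rtp4 were 3.03, 3.22 and 4.01, above both progenitors. Of 23 immediate early genes, which are switched on quickly by stimulation, 2 rose (Egr2 and Dusp1) and 0 fell. Their median was 0.38, and 1.91% of all features tested were called higher. Their summed signal was 504, 668 and 921 times the 75th percentile on MEP 1, 2 and 3, against 473, 481 and 475 times in CMP. Without MEP 3, 0 of them passed the test. Of 15 class I antigen presentation genes, H2-T23 rose by 0.37 and Pdia3 fell by 0.56. Without MEP 3, 0 of the 15 passed limma's test, and without CMP 1, 0 rose and 1 fell.

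The genes named next were picked for the widest range over the CMP arrays, and none passed the test. A wide spread within a group itself works against a call. Gm10375 had levels of -3.02, -3.52 and -2.31 in MEP, against -3.72, -0.90 and 0.95 in CMP, a range of 4.67 over the CMP arrays. Gm15401 had levels of -3.88, -3.26 and -3.66 in MEP, against -3.31, -3.54 and 0.78 in CMP, where CMP 3 alone stood apart. Gm20822, BC061237 and Gm20877 had the same order as Gm10375, with CMP 1 the lowest of the CMP arrays and CMP ranges of 3.58 to 4.14. Papln and Gm16982 were at -3.64 and -3.95 on CMP 1, below every MEP array, and above every MEP array on CMP 2 and CMP 3. CMP 1 was also below every MEP array in Gm10375, Gm20822 and Gm20877, so in these 5 genes it was not between the groups. LSK arrays also spread, with SDs of 2.21 for Gm10375 and 1.54 for Papln. The median SD over the CMP arrays was 0.24 for called features and 0.17 for the others, and over the MEP arrays it was 0.22 and 0.19.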

How the data were processed

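Total RNA of 7 sorted populations was measured on 19 custom Agilent arrays, 1 channel each. The deposited intensity values were background-subtracted and had outlier spots marked by Feature Extraction, version 11.5.1.1 with settings GE1_1105_Oct12, per the file headers, which name mouse build mm9. Log2 was taken of the processed signal of Feature Extraction, and each array's 75th percentile over non-control spots was subtracted. The authors' table of background-subtracted values entered only as an alternative setting. Control and outlier spots were left out, spots of 1 probe were averaged, and each gene took its brightest probe on average. Probes of a gene could differ in size of change, with -1.81 and -0.87 for Adgre1, -1.25 and -0.71 for Csf2rb, and 0.91 and 0.41 for Trp53inp1. Percentile scaling hides a change shared by most RNAs.

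Cell type means over all 19 arrays entered limma (version 3.58.1, R 4.3.3, eBayes, Benjamini-Hochberg at 0.05 over the features tested). The fit was tested on simulated data in which features varied independently, so that test does not cover shifts shared by a whole array. A group well above background on 0 arrays has only a bound, taken from the lowest signal well above background and given as at least N-fold. In the log2 values, 71 tested features lacked an array after outlier spots were left out, none of them named in the text.

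The members, the 27 gene lists and the rule for named genes were chosen with earlier results of these data known, and support nothing of their own. Named genes are fixed lineage genes, the 12 largest differences in each direction whose arrays did not overlap, up to 4 called members of a list in each direction, the 4 largest custom features and noncoding regions in each direction, up to 4 bounds in each direction, and genes with the widest CMP range. Other genes named from the lists, and those whose promoters are shown, were chosen after their values were seen. Gene names came from the RefSeq list of GRCm38.p6 where an accession matched. Promoters and motifs were read from RefSeq with pandas 2.3.3. The normalization between arrays, background correction, filters, blocks and arrays left out were varied. A called member of the platelet and megakaryocyte list is counted but not reported by name here.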

Additional observations from a re-analysis of the deposited data

How the results depend on the processing

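The count of 1031 features called fell to 28 when arrays were scaled on their spike-in spots and to 630 with no filter on dim probes, over 38391 features. Limma on the 6 arrays alone called 0 (4242 at an unadjusted p below 0.05, smallest adjusted p 0.0839). The same-numbered arrays did not deviate together on every slide (correlations of 0.02, -0.10 and 0.34), and MEP 2 with CMP 1 gave 0.35. With 3 arrays a group, these values cannot show whether the numbers pair the samples. With the replicate number as a block the 6 arrays again gave 0 (4372 unadjusted). The count rose to 1985 with normexp background correction, to 1931 without the 5 dim erythroblast arrays and to 3242 with array quality weights, all chosen after seeing the data. Leaving out 1 array gave 294 to 1228, and leaving out both arrays of a number gave 80 to 1192, lowest without number 3 and next without number 2 (100). Taking the percentile over detected probes moved the median of all features to 0.08 and the share of called features that were higher to 63.1%, against 42.4%. The other 5 settings (quantile normalization, the authors' value table, slide as a block, mean of probes, a filter on all 6 arrays) and leaving out CMP 1 with MEP 3 gave 725 to 1150. No named difference changed sign among those called. Of 115 named features called, 59, 58, 45 and 48 were lost without CMP 2, CMP 3, MEP 2 and MEP 3. Csf1r, F13a1, Il6st, Ly86, Malat1, Mefv and Slpi, 7 in all, passed under all alternatives but the spike-in scaling and the 6-array fits. Another 4 (Upk1b, TCONS_00168307, TCONS_00246154 and 1 region on chromosome 6) did so where they were tested, but the filter on all 6 arrays left them out. The causes were not tested. The mean spot signal that a planned normexp setting needed was not in the tables used here, so the median signal stood in for it. Signals near the array floor limit what can be said of the custom features and regions.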
